A study of Mus musculus with 28 samples.

Results

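The brush border is the carpet of microvilli on the apical face of the absorptive cells of the gut, the enterocytes. It holds enzymes that finish digestion and transporters that take up the products. A set of 33 mouse genes of this structure and of enterocyte metabolism was followed in wild-type and p63 knockout organs. The set was given by gene symbol, and each gene was read from its probe set with the highest mean over all arrays. Of the 33 genes, 32 have a probe set on the array that carries that symbol alone, the exception being Sis, the sucrase-isomaltase gene. A further 3 genes, Treh, Slc2a5 and Slc10a2, did not pass the filter on low values, so 29 of the 13613 genes tested belong to the set. The labels give all samples as Balb/c mice, either wild type (WT) or p63 knockout (p63 KO). Bladder came from 3 embryonic stages, day 15 (E15), day 18 (E18) and day 19 (E19). The proximal and the distal part of the stomach and both the small and the large intestine were taken at E18 alone. Each genotype had 2 arrays in each tissue and stage, which gives 14 groups and 28 Affymetrix mouse arrays of total RNA. In mouse the gene for p63 is named Trp63. The sources used here do not give the knockout allele, the dissection or the animals behind each sample. The spread that enters the p-values is therefore that between these samples, and it may be technical.

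Digestion at the brush border runs in steps. Lactase, maltase-glucoamylase, trehalase and the peptidases cut sugars and peptides outside the cell, and carriers such as Slc5a1 for glucose, Slc15a1 for peptides and Slc6a19 for neutral amino acids move the products in. Inside, fatty acid binding proteins carry lipids, and villin (Vil1), brush border myosin (Myo1a) and the protocadherins Cdhr2 and Cdhr5 build and space the microvilli. The transcription factors Hnf4a and Cdx2 are known regulators of enterocyte genes. p63 is the transcription factor of basal cells in stratified epithelia, among them the lining of the mouse proximal stomach (forestomach) and of the bladder. The comparison of knockout with wild type asks which of these intestinal genes appear in bladder or proximal stomach that lack p63, and which stay silent.

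The values are log2 expression values as deposited, and all differences are knockout minus wild type on that scale unless another order is named. A difference was called changed at a Benjamini-Hochberg adjusted p under 0.05 in limma's moderated test over all tested genes, from 1 model of all 28 arrays. A gene is called present in a group when it lies above the median of all non-control probe sets on both of its arrays, and below the median when it lies under it on both. These medians were 7.73 to 7.86 on all arrays except the 4 of bladder E19, where they were 7.48 to 7.53. The median is a landmark and not a test of expression. Replicate arrays correlated at 0.980 to 0.994 over the tested genes. The Trp63 probe set with the highest mean lay in proximal stomach at 13.24 ± 0.11 (SD, n = 2) in wild type and at 13.72 ± 0.08 in the knockout, and at 12.41 ± 0.18 and 11.32 ± 0.08 in bladder E18. Where these probe sets lie with respect to the deleted stretch is unknown here, so they check nothing about the genotype labels. Of 13 tissue markers chosen after the data had been seen, such as Upk2 for bladder, Krt5 for proximal stomach, Gkn1 for distal stomach and Apoa4 for small intestine, 13 lay above the median on every wild-type array of their own tissue. This does not make them specific to it. Hoxd10, taken for large intestine, averaged 11.46 there and 11.86 in wild-type bladder E15, and Upk2 averaged 14.05 in knockout proximal stomach.

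In wild-type gut the set marked the small intestine. Of the 32 genes measured, 28 were present in wild-type small intestine and 24 in large intestine, against 9 in distal stomach, 7 in proximal stomach and 4, 6 and 2 in bladder at E15, E18 and E19. Between wild-type small and large intestine, 24 of 29 tested genes were higher in small intestine and 0 were lower, where 19.5% of all genes tested were higher. Lct, which encodes lactase, lay at 14.20 and 14.06 in small intestine and at 5.55 and 5.13 in large intestine, a difference of 8.80 (SE 0.29, adjusted p = 6.29e-15). Slc2a2, the basolateral glucose transporter gene, lay at 11.74 ± 0.13 in small and 4.20 ± 0.10 in large intestine (SD, n = 2). The 5 genes that did not pass were Slc15a1, Fabp6, Myo1a, Clrn3 and Hao2. Because 13 of the 29 tested genes passed the filter through intestine arrays alone, and the genes were picked as enterocyte genes, these counts describe the set and support nothing further. Treh and Slc10a2 lay below the median on all 28 arrays, at 4.02 to 4.98 and 3.38 to 5.08.

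**Figure D1:**
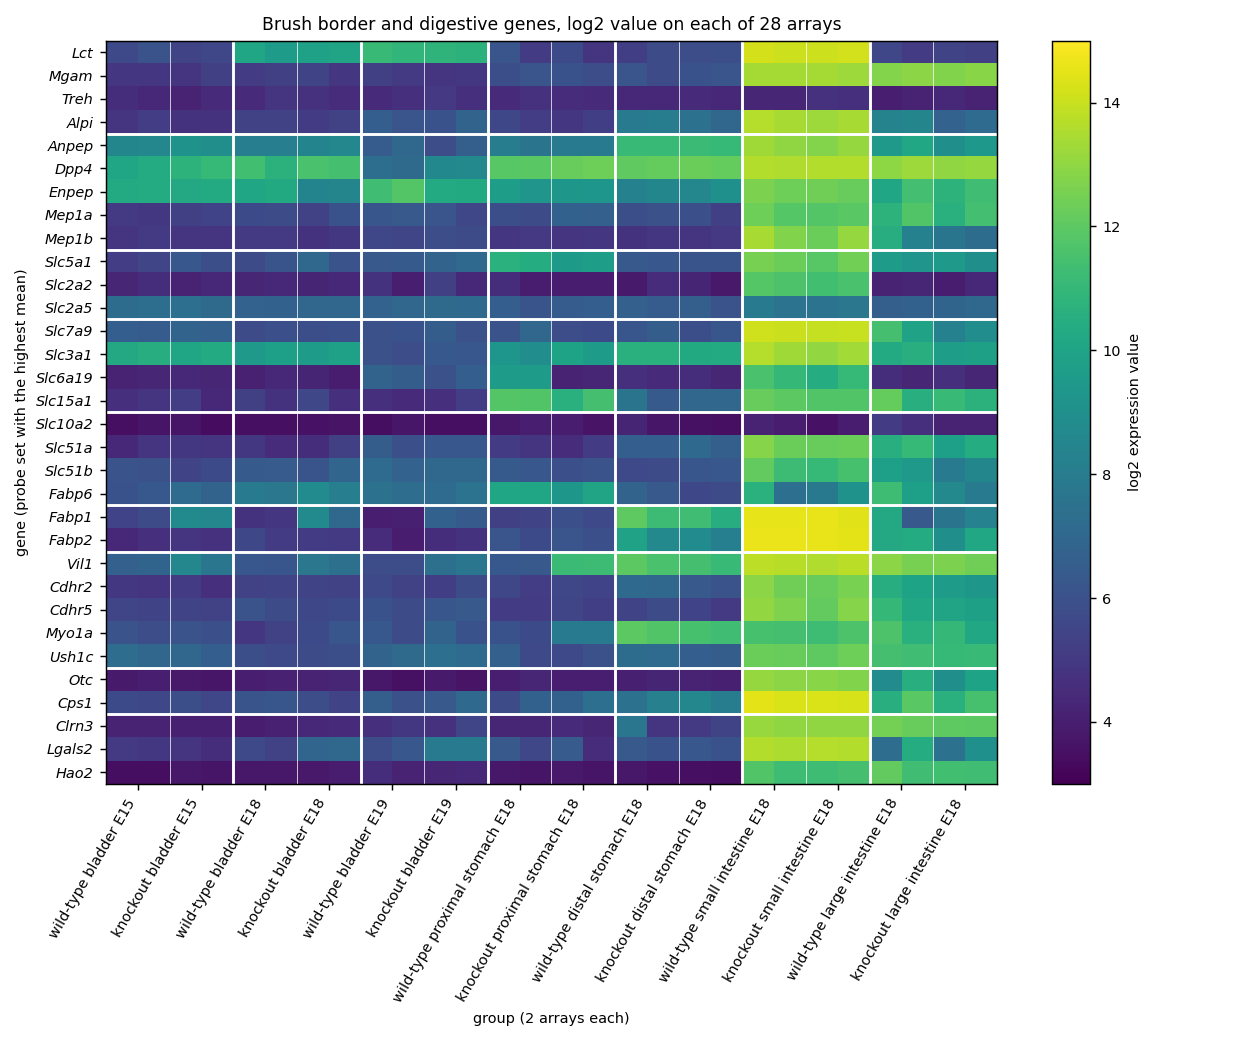
The log2 expression value of the 32 measured genes (rows, ordered by role) on each of the 28 arrays (columns, 2 per group); a lighter colour is a higher value. The small intestine columns are bright for most rows, while most rows stay dark in bladder and proximal stomach of both genotypes.

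In knockout bladder or knockout proximal stomach 10 genes of the set rose or fell, and 19 tested genes passed in neither organ. In bladder E15, Dpp4, Fabp1 and Vil1 rose and 0 genes fell: 3 of 29 tested genes, or 10.3%, were higher, where 4.55% of all genes tested were higher and 2.49% lower. In bladder E18, Fabp1 and Vil1 rose (6.9% of the set, where 1.56% of all genes rose) and Enpep fell (3.45% of the set, where 1.67% fell). In bladder E19, Dpp4, Fabp1, Vil1 and Lgals2 rose, 13.8% of the set where 13.5% of all genes rose, and Enpep fell, 3.45% where 6.5% fell. In proximal stomach, Vil1, Myo1a, Slc3a1 and Mep1a rose, 13.8% of the set where 18.1% of all genes rose, and Slc6a19 and Slc5a1 fell, 6.9% where 14.6% fell. At E19 and in proximal stomach the share of the set that changed was thus near or under that of all genes, so the counts there say nothing particular of these genes. At E15 and E18 the share that rose was above that of all genes but rests on few genes. The set was chosen with earlier results of these data known, so those counts are a description too. The median change of the 29 genes was 0.06, 0.09 and 0.29 in bladder E15, E18 and E19 and −0.09 in proximal stomach, and over all genes it was 0.07, 0.02, 0.09 and 0.02. In RNA taken from a tissue, fewer cells of a type and less RNA per cell cannot be told apart.

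**Figure D2:**
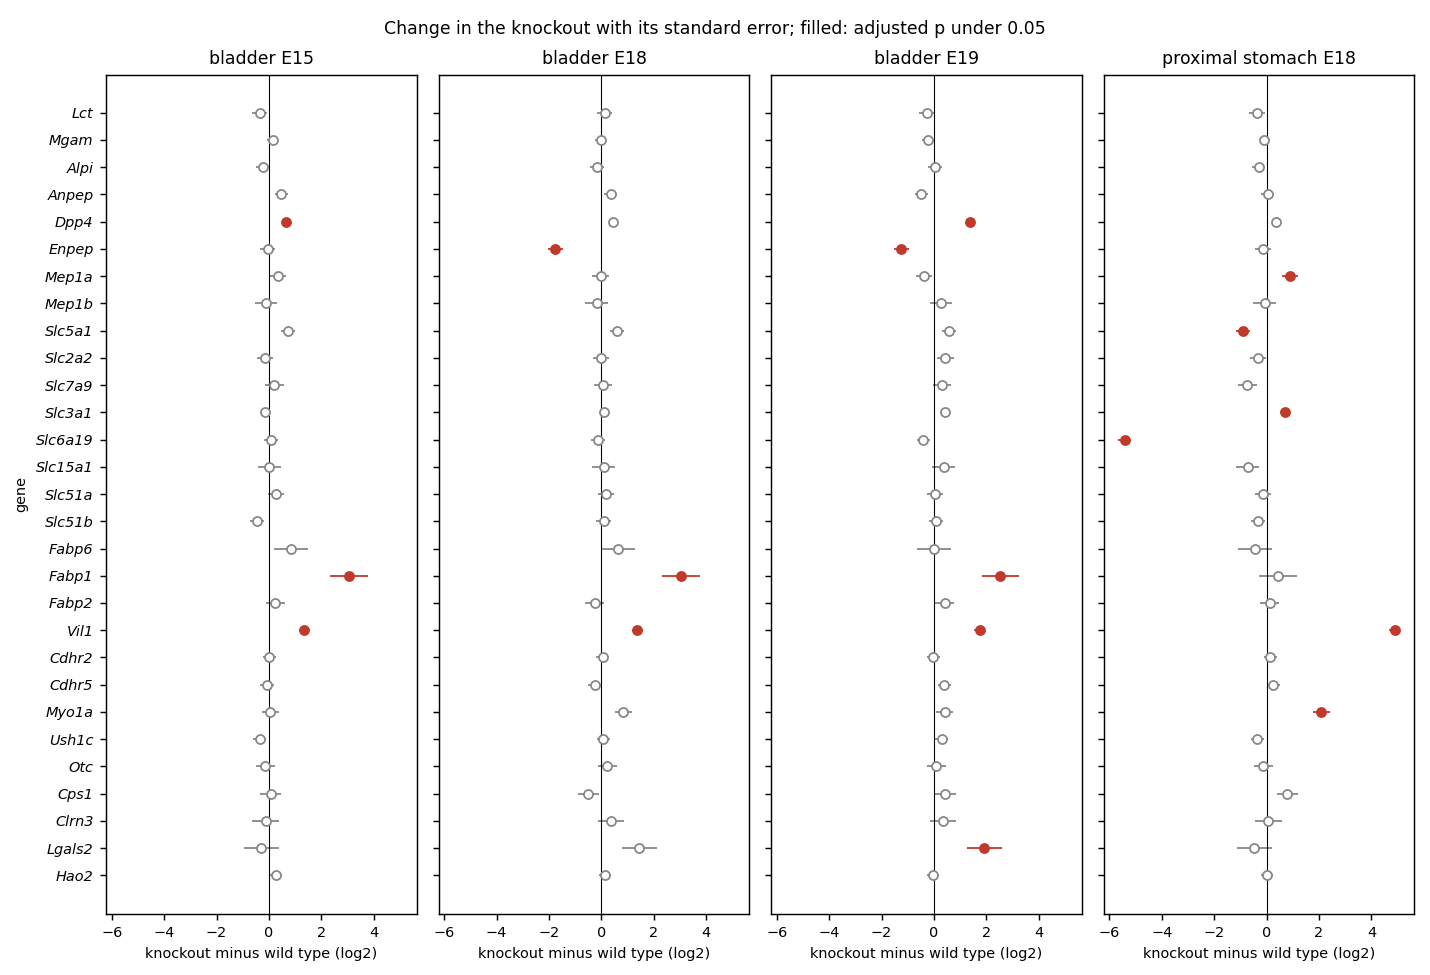
Knockout minus wild-type difference on the log2 scale (points) with its standard error (bars) for the 29 tested genes in bladder E15, E18 and E19 and in proximal stomach; filled red points passed at an adjusted p under 0.05. Vil1 passed in all 4 panels, Fabp1 in the 3 bladder panels, and Slc6a19 lies farthest to the left, in proximal stomach.

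By the position of their values, 20 of the 32 genes lay below the median on all 8 arrays of knockout bladder and knockout proximal stomach. They are the sugar-cutting enzyme and phosphatase genes Mgam, Treh and Alpi, the meprin genes Mep1a and Mep1b, the transporter genes Slc2a2, Slc2a5, Slc7a9, Slc6a19, Slc10a2, Slc51a and Slc51b, the fatty acid binding gene Fabp2, the microvillus genes Cdhr2, Cdhr5 and Ush1c, the urea cycle genes Otc and Cps1, and Clrn3 and Hao2. In knockout bladder 23 genes lay below it on all 6 arrays, and these same 23 did so on all 12 bladder arrays of both genotypes. In bladder and proximal stomach, the genes present in a knockout group and not in its wild type were Fabp1 at bladder E15, Dpp4 and Lgals2 at bladder E19, and Anpep, Vil1 and Myo1a in proximal stomach. Slc6a19 was present in wild-type proximal stomach and not in the knockout. The Anpep entry comes from 1 wild-type array just under the line, since Anpep lay at 8.09 and 7.63 in wild-type proximal stomach and at 7.89 or above on both knockout arrays (difference 0.04, SE 0.25, adjusted p = 0.933). The numbers depend on the line: with the 40th percentile of the array in place of the median, 5 genes in place of 2 were present in wild-type and 10 in place of 4 in knockout bladder E19, and with the 60th percentile 3 in place of 6 were present in knockout bladder E18.

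**Figure D3:**
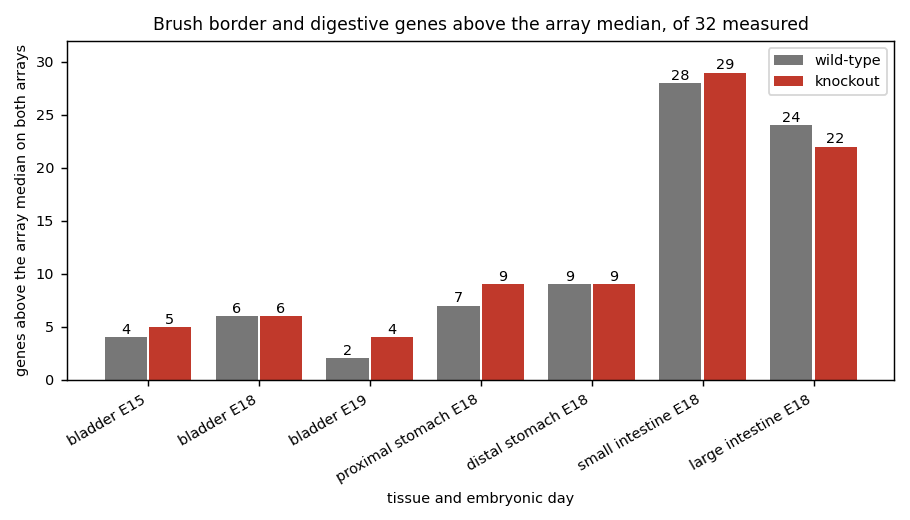
Number of the 32 measured genes that lay above the array median on both arrays of a group, for wild-type (grey) and knockout (red) tissues. The bars of bladder and stomach stand between 2 and 9, and those of the intestine between 22 and 29.

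The promoter sequences of the 10 genes that rose or fell in knockout bladder or proximal stomach were searched for 4 short motifs that transcription factors of the intestine are known to bind, and those of the 4 genes with a match are shown here. Each is the 250 bases before the start of the RefSeq transcript in assembly GRCm38.p6, read 5′ to 3′ on the gene's own strand, with motif matches in capitals. The motifs were CAAAGTCCA for HNF4, CCATAAA for CDX, GTTAATNAT for HNF1 and AGATAA for GATA, on both strands, and no 2 matches overlap in the promoters shown. Fabp1 (chr6:71199629-71199878, plus strand) has a CDX match 227 to 221 bases and another 89 to 83 bases before the start. Lgals2 (chr15:78855530-78855779, minus strand) has a GATA match 90 to 85 bases and a CDX match 68 to 62 bases before it. Dpp4 (chr2:62412232-62412481, minus strand) has a GATA match at 32 to 27 bases. Slc3a1 (chr17:85028097-85028346, plus strand) has a GATA match at 119 to 114 and an HNF4 match at 39 to 31 bases.
Fabp1: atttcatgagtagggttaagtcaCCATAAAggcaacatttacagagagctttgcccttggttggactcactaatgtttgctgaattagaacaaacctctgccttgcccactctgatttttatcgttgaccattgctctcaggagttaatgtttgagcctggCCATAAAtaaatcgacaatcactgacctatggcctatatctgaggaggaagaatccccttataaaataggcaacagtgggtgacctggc
Lgals2: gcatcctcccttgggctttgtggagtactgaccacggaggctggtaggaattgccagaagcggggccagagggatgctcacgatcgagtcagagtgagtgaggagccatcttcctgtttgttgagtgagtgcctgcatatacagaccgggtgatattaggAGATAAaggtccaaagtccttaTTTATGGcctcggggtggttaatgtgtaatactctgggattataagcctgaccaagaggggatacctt
Dpp4: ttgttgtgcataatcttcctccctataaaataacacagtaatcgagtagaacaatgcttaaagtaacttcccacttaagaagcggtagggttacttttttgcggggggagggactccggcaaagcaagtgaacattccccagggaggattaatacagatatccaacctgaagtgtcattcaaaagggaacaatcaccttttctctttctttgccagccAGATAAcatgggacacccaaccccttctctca
Slc3a1: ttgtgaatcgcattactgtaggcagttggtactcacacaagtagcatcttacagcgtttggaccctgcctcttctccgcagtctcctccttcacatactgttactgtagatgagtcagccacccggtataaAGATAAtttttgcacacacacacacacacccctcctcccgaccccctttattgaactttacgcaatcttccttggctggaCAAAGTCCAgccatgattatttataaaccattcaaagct
Promoters of 31 genes of the set were searched. The CDX letters were found in 3 of these genes (Clrn3, Fabp1 and Lgals2) and in 2.43% of all 32851 promoter windows of this length. The HNF4 letters were in Alpi, Slc3a1 and Treh and in 0.384% of all windows, the HNF1 letters in Cdhr2 and Slc10a2 and in 0.737%, and the GATA letters in Dpp4, Lct, Lgals2, Mgam, Slc3a1 and Slc7a9 and in 9.99%. Genes with the same letters differed in the knockout: of the CDX-matched genes Fabp1 rose in bladder and Clrn3 lay below the median on every bladder and proximal stomach array. No match lay in the windows of Vil1, Myo1a, Mep1a, Enpep, Slc5a1 and Slc6a19.

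Among the microvillus genes Vil1, whose product villin bundles actin in the microvillus core, rose in every knockout bladder group and in knockout proximal stomach. In proximal stomach it lay at 6.29 and 6.33 on the wild-type arrays and at 11.16 and 11.23 on the knockout arrays, a 29.6-fold difference (4.89 on the log2 scale, SE 0.22, adjusted p = 1.86e-13). This brought it near the 11.97 and 11.55 of wild-type distal stomach, the glandular part of the organ. In bladder Vil1 lay at 8.56 and 7.71 in the knockout against 6.68 and 6.89 in wild type at E15, at 7.76 and 7.45 against 6.25 and 6.22 at E18, and at 7.44 and 7.72 against 5.82 and 5.85 at E19. Knockout and wild-type arrays did not overlap at any stage, and the differences were 1.35, 1.37 and 1.74 (SE 0.22 each, adjusted p = 0.000864, 0.000695 and 1.67e-05). The E15 call ended with a covariate for RNA quality, the log2 ratio of 3′ to 5′ signal of control genes (1.05, adjusted p = 0.552), while those at E18 and E19 and in proximal stomach held with it. RNA quality and 9 of 13 pan-epithelial genes moved with genotype at E15, as given further on, and their part was not tested otherwise. All bladder values but the higher E15 array and the higher E19 array stayed under the array median. The rise in proximal stomach exceeded that in bladder E18 by 3.52 (SE 0.31, adjusted p = 2.54e-08).

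Myo1a, the motor that ties the actin core to the membrane, rose in proximal stomach and in no bladder group. It lay at 6.01 and 5.72 in wild-type and at 7.99 and 7.89 in knockout proximal stomach (2.08, SE 0.32, adjusted p = 3.12e-05), and at 11.99 and 11.73 in wild-type distal stomach. In bladder E18 its values were 4.91 and 5.32 in wild type and 5.69 and 6.20 in the knockout, which do not overlap, but the difference of 0.83 did not pass (SE 0.32, adjusted p = 0.199). The test of the difference between organs gave 1.25 (SE 0.46, adjusted p = 0.0539), so a smaller effect in bladder was not shown. The other microvillus genes stayed low. Cdhr2 and Cdhr5, the protocadherins that link neighbouring tips, lay at 4.67 to 5.75 and 5.08 to 6.35 on all arrays of bladder and proximal stomach. Ush1c, the scaffold harmonin that anchors them, lay at 5.64 to 7.38. In wild-type small intestine these 3 genes lay at 12.23 or higher. Vil1 and Myo1a therefore rose in knockout proximal stomach while the tip-link genes Cdhr2, Cdhr5 and Ush1c gave differences of 0.14, 0.26 and −0.35 that did not pass (adjusted p = 0.696, 0.472 and 0.297).

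**Figure D4:**
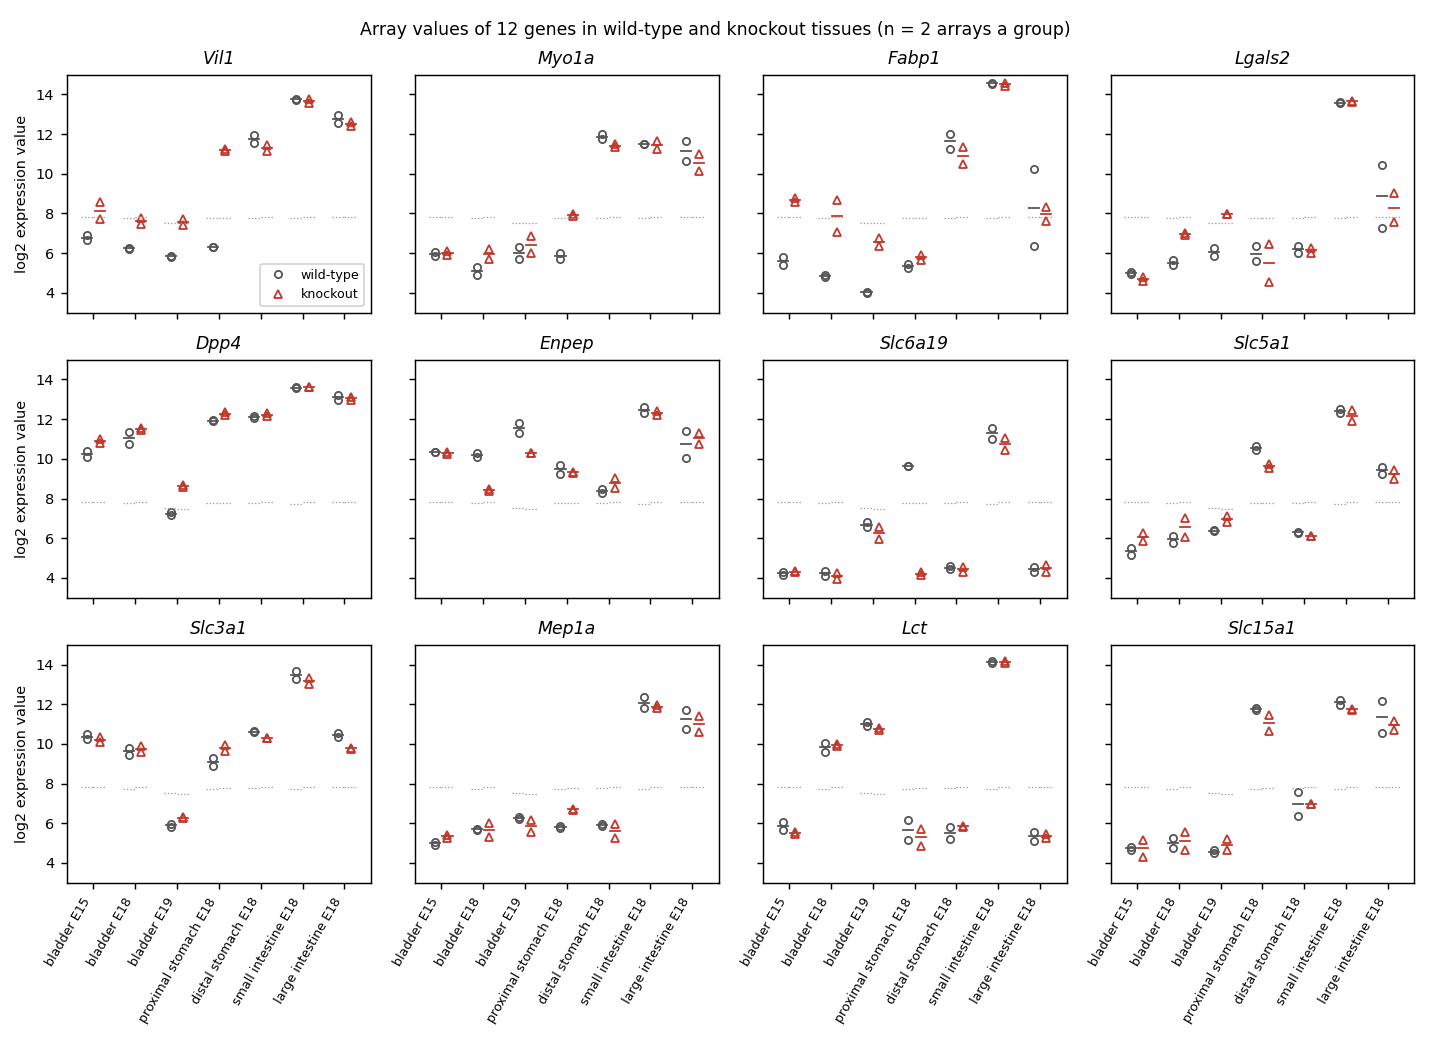
The log2 expression value of 12 genes on each array by tissue and stage, with wild-type arrays as grey circles and knockout arrays as red triangles. Solid bars are means of 2 arrays and dotted lines are array medians; the knockout values of Vil1 and Myo1a stand above the wild-type values in proximal stomach, those of Fabp1 in bladder, and those of Slc6a19 below them in proximal stomach.

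Fabp1, the liver-type fatty acid binding protein of enterocytes and hepatocytes, rose in knockout bladder at each stage. At E15 it lay at 8.76 and 8.56 in the knockout and at 5.41 and 5.80 in wild type (3.06, SE 0.72, adjusted p = 0.0143). At E18 it lay at 8.70 and 7.04 against 4.78 and 4.88 (3.04, SE 0.72, adjusted p = 0.0223), and at E19 at 6.74 and 6.38 against 3.99 and 4.06 (2.54, SE 0.72, adjusted p = 0.0175). The genotypes did not overlap at any stage, and the knockout arrays at E18 differed by more than those at E15 or E19. Both knockout values at E19 and the lower one at E18 lay under the array median, so Fabp1 was present in knockout bladder at E15 alone. In proximal stomach Fabp1 stayed low in both genotypes, at 5.25 and 5.47 in wild type and 5.91 and 5.66 in the knockout. The difference between the organs was −2.62 (SE 1.02, adjusted p = 0.0719), so a bladder-only effect was not shown. Its close relative Fabp2, the intestinal-type binding protein, did not pass in any of these 4 comparisons, with differences of −0.26 to 0.40. The second Fabp1 probe set gave 2.44, 1.62 and 0.81 at E15, E18 and E19. With the mean of all probe sets the Fabp1 calls at E18 and E19 ended. The Fabp1 calls rested on few arrays. The E15 call ended without knockout replicate 1 (2.96, adjusted p = 0.137), wild-type replicate 1 (2.86, adjusted p = 0.164) or wild-type replicate 2 (3.25, adjusted p = 0.0536). The E18 call ended without knockout replicate 1 (2.21, adjusted p = 0.25), wild-type replicate 1 (2.99, adjusted p = 0.126) or wild-type replicate 2 (3.09, adjusted p = 0.136), and the E19 call without any 1 of its 4 arrays (2.36 to 2.71, adjusted p = 0.0646 to 0.108).

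Because Fabp1 is also a liver gene, liver markers were read beside it. Of 12 liver markers, 11 lay below the median on both wild-type bladder E18 arrays and 10 on both knockout arrays, with Ttr present in each genotype. Their mean level per array was 6.40 to 6.44 in wild-type and 6.66 to 7.34 in knockout bladder E18, and Alb lay at 6.56 ± 0.07 and 7.53 ± 1.29 (SD, n = 2). At E15 the mean level was 6.28 to 6.52 in wild type and 6.47 to 6.95 in the knockout, and at E19 it was 6.80 to 6.90 and 7.09 to 7.17, where Alb, Ttr and Apoa2 were present in the knockout. With limma 0 of 9 tested liver markers passed at E15 and at E18, and Ttr rose at E19. Of the 12, 6 were also present in wild-type small intestine. The part of liver RNA in the Fabp1 result was not tested.

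The peptidase genes behaved differently from each other. Dpp4 encodes a dipeptidyl peptidase that many epithelia carry, and it was present in both genotypes in all groups but wild-type bladder E19. It rose in knockout bladder at E15, from 10.11 and 10.39 to 10.78 and 11.02 (0.64, SE 0.15, adjusted p = 0.0143), and at E19, from 7.32 and 7.16 to 8.59 and 8.67 (1.39, SE 0.15, adjusted p = 4.2e-06). At E18 it lay at 11.37 and 10.73 in wild type and 11.55 and 11.45 in the knockout (0.45, adjusted p = 0.129). The other Dpp4 probe sets gave 0.49, 0.52 and 0.17 at E15, 0.33, −0.96 and 0.29 at E18, and 0.60, 1.07 and −0.06 at E19. The effect at E19 exceeded that at E18 by 0.94 (SE 0.22, adjusted p = 0.0142), the 1 of 29 tested genes that passed this comparison, where 5.27% of all genes passed. That call ended without knockout E19 replicate 2 (0.90), knockout E18 replicate 2 (0.88) or wild-type E18 replicate 1 (0.61). It also ended with the mean of all probe sets or a fit of the compared arrays alone. The E15 rise ended without knockout replicate 2 (0.52, adjusted p = 0.0654) or wild-type replicate 1 (0.50, adjusted p = 0.251). Levels of Dpp4 were lower at E19 than at E18 in both genotypes, on arrays whose medians were lower too, which is a description with no test.

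Enpep, the aminopeptidase that cuts acidic residues, moved the other way. At E18 it lay at 10.09 and 10.30 in wild-type and at 8.39 and 8.47 in knockout bladder (−1.76, SE 0.29, adjusted p = 0.00096). At E19 it lay at 11.32 and 11.80 in wild type and at 10.32 and 10.29 in the knockout (−1.26, SE 0.29, adjusted p = 0.0044), a call that ended without wild-type replicate 2 (−1.01, adjusted p = 0.0602). At E15 the genotypes overlapped, with 10.34 and 10.37 in wild type and 10.26 and 10.35 in the knockout. The change from the E15 to the E18 effect was −1.72 (SE 0.41, adjusted p = 0.0607), and 0 of 29 tested genes passed this comparison with limma, where 0.61% of all genes passed and 1 gene of the set had an unadjusted p under 0.05. In proximal stomach Enpep differed by −0.14 (SE 0.29, adjusted p = 0.763), and the effect there exceeded that in bladder E18 by 1.63 (SE 0.41, adjusted p = 0.006). Enpep stayed present in all 14 groups, so it fell in knockout bladder without leaving the range above the median.

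Mep1a, a subunit of the metalloprotease meprin, rose in knockout proximal stomach from 5.88 and 5.76 to 6.74 and 6.70 (0.90, SE 0.31, adjusted p = 0.0328). All 4 values lay under the array median, and small intestine held 11.79 to 12.35. A second Mep1a probe set gave 1.25, with means of 4.24 in wild type and 5.48 in the knockout, also under the median. The call ended without any 1 of the 4 arrays (0.84 to 0.96, adjusted p = 0.0871 to 0.117), with array weights (adjusted p = 0.0567) and with the RNA quality covariate, where the value was 0.32 (adjusted p = 0.728). Mep1b, the other subunit, lay at 4.74 to 5.84 in bladder and proximal stomach. Anpep, aminopeptidase N, was present in bladder at E15 and E18 in both genotypes and did not pass in any bladder group, with differences of 0.48, 0.36 and −0.49 at E15, E18 and E19 (adjusted p = 0.265, 0.551 and 0.174).

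Lct was the disaccharidase gene with a bladder signal, in both genotypes and by stage. At E15 it lay at 5.64 and 6.06 in wild-type and at 5.44 and 5.54 in knockout bladder. At E18 it lay at 10.06 and 9.60 against 9.95 ± 0.08 (SD, n = 2), and at E19 at 11.13 and 10.89 against 10.78 and 10.71. The levels were thus higher at each later stage with and without p63, and the knockout differences of −0.36, 0.12 and −0.27 (SE 0.29 each) did not pass (adjusted p = 0.507, 0.919 and 0.575). In proximal stomach Lct stayed at 4.87 to 6.17. The other enzymes of this group were low outside the intestine: in bladder and proximal stomach Mgam, maltase-glucoamylase, lay at 4.81 to 6.16 and Alpi, intestinal alkaline phosphatase, at 4.76 to 6.82, and neither passed in any of the 4 comparisons.

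The steepest fall was that of Slc6a19, which encodes the neutral amino acid transporter B0AT1. It lay at 9.63 and 9.62 in wild-type and at 4.15 and 4.27 in knockout proximal stomach, a 42.7-fold difference (−5.42, SE 0.26, adjusted p = 5.75e-13), and a second probe set gave −5.84. In bladder it differed by 0.09, −0.13 and −0.40 at E15, E18 and E19, none of which passed, and the effects in proximal stomach and bladder E18 differed by −5.28 (SE 0.36, adjusted p = 6.59e-10). Outside the small intestine, where it lay at 10.44 to 11.57, wild-type proximal stomach was the 1 wild-type group with Slc6a19 above the median. Slc3a1 and Slc7a9 encode the heavy and the light chain of the exchanger for basic amino acids and cystine. Slc3a1 rose in knockout proximal stomach from 9.31 and 8.88 to 9.94 and 9.64 (0.70, SE 0.18, adjusted p = 0.00428), a call that ended with the RNA quality covariate (0.63, adjusted p = 0.141) and without knockout replicate 1 (0.55, adjusted p = 0.0661) or wild-type replicate 2 (0.48, adjusted p = 0.0835). Slc7a9 did not pass there (−0.73, SE 0.35, adjusted p = 0.118) and lay below the median on every bladder and stomach array. Slc3a1 was present in bladder of both genotypes at E15 and E18, at 9.46 to 10.49, and lay at 5.83 to 6.31 at E19.

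Slc15a1, the peptide transporter PepT1, was already high in proximal stomach with p63 present. On the wild-type arrays it lay at 11.81 and 11.74 and on the knockout arrays at 10.64 and 11.46 (−0.72, SE 0.44, adjusted p = 0.226), and at 4.33 to 5.57 in bladder. The glucose cotransporter gene Slc5a1 was also present in wild-type proximal stomach and fell in the knockout, from 10.65 and 10.45 to 9.54 and 9.74 (−0.91, SE 0.27, adjusted p = 0.0124). A second Slc5a1 probe set gave −0.14, and the call ended without knockout replicate 1 (−0.81, adjusted p = 0.0819) or wild-type replicate 1 (−0.81, adjusted p = 0.0892), and with the RNA quality covariate (−0.50, adjusted p = 0.482). In bladder Slc5a1 lay at 5.17 to 7.11, with knockout differences of 0.73, 0.60 and 0.59 at E15, E18 and E19 that did not pass (adjusted p = 0.105, 0.287 and 0.13). The second probe set gave larger differences there, 1.09, 0.83 and 0.83. With the chosen probe set, the effects in proximal stomach and bladder E18 differed by −1.51 (SE 0.38, adjusted p = 0.00609). They differed by −1.02 without knockout bladder E18 replicate 1, where the call ended. The call also ended with the RNA quality covariate (adjusted p = 0.0764). The fructose transporter gene Slc2a5 and Slc2a2 lay below the median on all arrays of bladder and proximal stomach, at 6.14 to 7.37 and 3.90 to 5.28. In all, 4 of 29 tested genes (Enpep, Slc5a1, Slc6a19 and Vil1) differed in effect between proximal stomach and bladder E18. This share of 13.8% was under the 22.8% of all genes that did.

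Of the genes for bile acid handling, Fabp6, the ileal bile acid binding protein, was the 1 present outside the intestine. It lay at 10.12 and 10.09 in wild-type and 9.35 and 9.99 in knockout proximal stomach (−0.44, SE 0.65, adjusted p = 0.652), and at 7.91 and 7.76 against 8.79 and 8.15 in bladder E18 (0.64, SE 0.65, adjusted p = 0.729). Slc51a and Slc51b, the basolateral bile acid exporter pair, lay below the median on every bladder and stomach array. The urea cycle genes Otc and Cps1, which serve citrulline synthesis in the gut, were at 3.54 to 4.30 and 5.48 to 7.39 in bladder and proximal stomach. Lgals2, which encodes the sugar-binding protein galectin-2, rose in knockout bladder E19 from 5.86 and 6.26 to 7.98 and 7.99 (1.92, SE 0.66, adjusted p = 0.0451). At E18 it lay at 5.65 and 5.38 in wild type and 6.91 and 7.02 in the knockout, which do not overlap, but the difference of 1.45 did not pass (SE 0.66, adjusted p = 0.296). The E19 call ended without any 1 of the 4 arrays (1.72 to 2.12, adjusted p = 0.0962 to 0.192), and a second Lgals2 probe set gave 0.60. It also ended with the mean of all probe sets (1.26, adjusted p = 0.116), with no filter, and with a spread model without trend or a robust one (adjusted p = 0.0521 to 0.064), so that it was lost in 8 of 15 alternatives. The other 2 genes of the group, Clrn3, a tetraspan membrane protein gene, and Hao2, a peroxisomal oxidase gene, lay at 3.96 to 5.50 and 3.42 to 4.57 in bladder and proximal stomach.

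The number of changed genes also followed single arrays. In bladder E15 it was 1 in place of 3 without wild-type replicate 1. In bladder E19 it was 3 in place of 5 when knockout replicate 1 or wild-type replicate 1 was left out, and 2 when wild-type replicate 2 was. In proximal stomach it was 3 in place of 6 without knockout replicate 1, which left Vil1, Myo1a and Slc6a19. RNA quality moved with genotype in bladder E15 and proximal stomach. The log2 ratio of the 3′ to the 5′ actin control was 1.33 and 1.12 in knockout and 0.69 and 0.78 in wild-type bladder E15, and 0.48 and 0.61 in knockout and 0.97 and 0.88 in wild-type proximal stomach. With the mean of this ratio and that of Gapdh as a covariate, 0 genes passed in bladder E15, where Fabp1 gave 3.21 (adjusted p = 0.692) and Dpp4 0.82 (adjusted p = 0.471), and 3 passed in proximal stomach. Pan-epithelial genes moved as well: 9 of 13 rose in bladder E15 and 10 of 13 in proximal stomach, 0 at bladder E18 and 2 at bladder E19, and 0 fell. Their mean level per array was 11.33 to 11.40 in wild-type and 11.93 to 11.94 in knockout bladder E15, and 11.56 to 11.89 and 13.26 to 13.33 in proximal stomach. Their part in the results was not tested.

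Wild-type small intestine was the reference for how far the knockout organs had come, and it is shared by both comparisons that follow and by the one with large intestine. In knockout bladder E18, 28 of 29 tested genes were lower, where 27.7% of all genes were, and the exception was Fabp6 (−0.55, adjusted p = 0.498). In knockout proximal stomach 27 were lower, where 23.6% of all genes were, and the exceptions were Slc15a1 (−1.06, adjusted p = 0.0521) and Fabp6 (0.65, adjusted p = 0.439). The median difference was −7.00 in knockout bladder E18 and −7.37 in knockout proximal stomach. Most of these genes are high in small intestine by choice, so the counts are a description. Fabp6 was not present in wild-type small intestine, where its arrays lay at 7.39 and 10.66. Its exceptions therefore do not show that the knockout organs reached an intestinal level. The risen genes fell short by different amounts: Vil1 by 6.14 in knockout bladder E18 and 2.55 in knockout proximal stomach, Fabp1 by 6.68 and 8.76, and Myo1a by 5.55 and 3.55.

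Outside bladder and proximal stomach 2 changes passed, both in large intestine. In distal stomach and small intestine 0 of 29 genes passed with limma, and 0% of all genes did; at an unadjusted p under 0.05 the counts were 5 and 0 genes of the set and 528 and 626 of all genes. In distal stomach Clrn3 differed by −1.02, and without wild-type replicate 2 it was the 1 gene that passed (−2.46, adjusted p = 5.5e-05). In large intestine Alpi fell from 8.38 and 8.48 to 6.77 and 7.21 (−1.44, SE 0.26, adjusted p = 0.0211) and Slc7a9 from 11.45 and 9.91 to 8.27 and 8.87 (−2.11, SE 0.35, adjusted p = 0.0135), 2 of 29 genes, where 0.0882% of all genes passed. The wild-type arrays of large intestine were less alike over the set than any other pair. The SD of the difference between replicates over the 29 genes was 1.31 in wild-type large intestine and 0.21 to 0.69 in the other groups. Fabp1 lay at 10.26 and 6.34 and Lgals2 at 7.28 and 10.43 on the wild-type large intestine arrays. Both calls ended without wild-type replicate 1 (Alpi −1.49, adjusted p = 0.183, and Slc7a9 −1.34, adjusted p = 0.271) or knockout replicate 1 (−1.23, adjusted p = 0.0785, and −1.81, adjusted p = 0.0607), and without wild-type replicate 2 the number was 5. The Alpi call also ended with quantile normalization, array weights or the replicate block (−1.42 to −1.44, adjusted p = 0.063 to 0.28).

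Further genes of the brush border and of absorption, outside the 33, changed in both directions in proximal stomach. Of 41 tested, 7 rose (17.1%, where 18.1% of all genes rose) and 8 fell (19.5%, where 14.6% fell), with a median of −0.20. These shares are near those of all genes, so the counts say nothing particular of the list. The largest changes were those of Ada (−5.92), adenosine deaminase, Rbp2 (−5.51), a retinol carrier, Vill (4.97), a villin relative, and Pls1 (4.50), which bundles actin in microvilli. Pls1 went from 7.09 ± 0.85 in wild type to 11.59 ± 0.25 in the knockout (SD, n = 2, adjusted p = 6.2e-12). In bladder E15, 0 rose, where 4.55% of all genes rose, and 1 fell, Maf (2.44%, where 2.49% fell). In bladder E18, 0 of 41 passed with limma, where the median was 0.06 and where 1.56% of all genes rose and 1.67% fell. At E19, 3 rose (7.32%, where 13.5% of all genes rose) and 3 fell (7.32%, where 6.5% fell), among them Reg3g (1.92), an antibacterial lectin gene, Abcb1a (−1.53), a drug efflux pump gene, Ada (1.27) and Mme (0.98), the peptidase neprilysin. Ada thus rose in knockout bladder E19 and fell in knockout proximal stomach, and its effect in proximal stomach differed from that in bladder E18 by −6.23 (adjusted p = 4.89e-11).

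Of 25 tested transcription factors of the intestine, 8 rose in proximal stomach (32%, where 18.1% of all genes rose) and 5 fell (20%, where 14.6% fell). The largest changes there were those of Foxa2 (4.77), Ppara (−3.72), Hnf4a (3.27) and Foxa3 (3.04). Hnf4a went from 6.45 ± 0.04 to 9.72 ± 0.08 (SD, n = 2, adjusted p = 8.7e-10). In bladder 4 rose and 1 fell both at E15 and at E18 (16% and 4%, where 4.55% and 2.49% of all genes did at E15 and 1.56% and 1.67% at E18). At E19, 7 rose and 2 fell (28% and 8%, where 13.5% and 6.5% of all genes did). Sox2, a factor of stomach and other foregut epithelia, fell in bladder E18 (−2.04), and Foxa3 (1.78) and Hnf4a (1.20) rose there. Atoh1, the factor of secretory cells, rose most at E19 (2.53), and Elf3 rose at E19 too (1.25). Elf3 is counted both among these factors and among the pan-epithelial genes. Hnf4a reached 7.83 ± 0.30 in knockout bladder E18, it also rose at E15 (1.28), and it was not among the 7 factors that rose at E19. Cdx1 and Cdx2, named as known regulators of enterocyte genes, did not pass. They lay at 5.64 ± 0.11 and 5.32 ± 0.02 in knockout bladder E18 and at 5.61 ± 0.09 and 5.32 ± 0.18 in knockout proximal stomach (SD, n = 2). Their differences were 0.05 and 0.10 in bladder E18 (adjusted p = 0.957 and 0.917) and −0.17 and −0.14 in proximal stomach (adjusted p = 0.557 and 0.712).

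The goblet and crypt-base secretory genes are a list of another intestinal lineage. In bladder E18, 9 of 13 tested rose (69.2%, where 1.56% of all genes rose) and 0 fell, led by Guca2a (4.73), Tff3 (4.49) and Olfm4 (3.66), with a list median of 2.55 against 0.09 for the enterocyte set. In bladder E19, 11 rose (84.6%, where 13.5% of all genes rose), among them Clca1 (4.20), and at E15 the count was 0 with limma. In proximal stomach 4 rose (30.8%, where 18.1% of all genes rose), Spink4 (7.55), Agr2 (7.01), Fcgbp (1.35) and Tff3 (0.69). Like the other lists, this one was chosen with earlier results of these data known, so its shares and median are a description without independent support. The difference between this list and the enterocyte set was not tested. Markers of other organs were read as well. Of 5 tested kidney tubule and Wolffian duct markers 0 passed in any of the 4 comparisons with limma, and of 6 tested pancreas acinar markers Cela1 rose in proximal stomach (1.73, adjusted p = 0.000317). Of 9 liver markers Serpina1b fell there (−4.80, adjusted p = 6.02e-10).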

How the data were processed

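Total RNA of 28 samples was extracted with Trizol, labelled with biotin by a 3′ IVT express kit and hybridised to Affymetrix mouse arrays, per the labels' protocols. The submitters' processing notes name Affymetrix Expression Console and Partek, and the sources used here do not state the normalization. The deposited values were log2 expression values per probe set, by the authors, ranging from 2.98 to 15.4. No further normalization was applied, so a scaling that differed between stages would move the levels compared across stages.

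From the 45101 probe sets, 64 controls were removed. Of the other 45037, 34945 carry 1 gene symbol in GEO's platform annotation, 932 several and 9160 none. A probe set was kept if it exceeded the array median on at least 2 arrays, and each gene was represented by the kept 1-symbol probe set with the highest mean. This left 13613 genes from 28866 probe sets. The comparisons used limma 3.58.1 in R 4.3.3, with lmFit on 14 group means and eBayes with a trend (14 residual and 6.19 prior degrees of freedom), and Benjamini-Hochberg adjustment over all genes. The procedure was tested on simulated data. With 2 arrays against 2, an exact permutation test cannot go below p = 0.333 (two-sided), so it was not used. The number of arrays limits the precision.

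The 33 genes and the other lists were chosen with earlier results of these data known, and they carry no independent support. Named by rule were all genes of the set that changed in knockout bladder or proximal stomach, and up to 4 genes of each other list with the largest change in proximal stomach and up to 4 in bladder E18 or E19. Genes named outside this rule include Hnf4a in bladder, and Cdx1 and Cdx2, as known regulators of enterocyte genes. Promoter sequences are RefSeq's, of GRCm38.p6, printed for up to 4 of the changed genes with a motif match. Comparisons across stages share the bladder E18 arrays, as does the one between proximal stomach and bladder. Labels give groups the same replicate numbers, but same-numbered arrays deviated together at correlations of −0.127 to 0.275, so the numbers were not used as pairs. Figures were drawn with matplotlib 3.10.9 in Python 3.11.15. Alternatives covered the normalization, the filter, the probe set of a gene, the spread model, array weights, an RNA quality covariate, the arrays in the fit, the replicate block and leaving out each array.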

Additional observations from a re-analysis of the deposited data

Results flagged for a closer look

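The knockout effect differed between proximal stomach and bladder E18 for 4 genes of the set, by a test of the difference itself in limma. That was 13.8% of the 29 tested genes, under the 22.8% of all genes, so the count says nothing particular of the set. Vil1 rose in both organs, and the effect in proximal stomach was larger by 3.515 (log2). Slc6a19 fell in proximal stomach alone by call, with a difference between the effects of −5.285. Slc5a1 fell in proximal stomach and was at a positive, uncalled difference in bladder, so that the effects differed by −1.506. This call ended with the RNA quality covariate (adjusted p = 0.0764) and without knockout bladder E18 replicate 1 (−1.02). A second Slc5a1 probe set gave −0.14 in proximal stomach and 0.83 in bladder E18, so its difference between the organs lay mostly in bladder. Enpep fell in bladder E18 and lay close to wild type in proximal stomach, so that the effects differed by 1.627.

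Between stages, the effect on Dpp4 in bladder was larger at E19 than at E18 by 0.9355. That call ended when knockout E19 replicate 2 (0.90), knockout E18 replicate 2 (0.88) or wild-type E18 replicate 1 (0.61) was left out. It also ended with the mean of all probe sets or a fit of the compared arrays alone.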

How the results depend on the processing

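Of 36 changes of single genes that were followed, 24 were called, and 10 of these were called in every alternative run: Vil1 in bladder E18, bladder E19 and proximal stomach, Enpep in bladder E18, Dpp4 in bladder E19, Slc6a19 and Myo1a in proximal stomach, and the differences between proximal stomach and bladder E18 of Enpep, Slc6a19 and Vil1. The other 14 lost their call in at least 1 alternative. Clrn3 in distal stomach turned from −1.02 to 0.41 without wild-type replicate 1 and was −2.46 without wild-type replicate 2.

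The number of genes called moved by over 1.5 times in these cases, and the causes were not tested. With the RNA quality covariate it was 0 in bladder E15 (3 otherwise) and 3 in proximal stomach (6 otherwise). With the mean of all probe sets of a gene it was 3 in bladder E19 (5 otherwise) and 0 for the effect at E19 minus that at E18 (1 otherwise). In large intestine (2 otherwise) quantile normalization gave 1, array weights gave 1 and a fit of the compared arrays alone gave 0. For the effect at E18 minus that at E15 (0 otherwise) median centring gave 1, array weights gave 1 and a fit of the compared arrays alone gave 2, and such a fit gave 0 for E19 minus E18. The replicate block gave 5 in bladder E18, 1 in large intestine, 7 for proximal stomach minus bladder E18, and 1 for E18 minus E15. Pairing by number had no support, and crossing the numbers in small intestine, added after seeing the data, gave 0 genes as well. No paired analysis was possible for comparisons between tissues because the labels' numbers tie no arrays across tissues.

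Leaving out 1 array at a time gave 1 to 2 genes in bladder E15, 2 to 4 in E18, 2 to 4 in E19, 3 to 6 in proximal stomach, 0 to 1 in distal stomach, 0 to 0 in small intestine and 0 to 5 in large intestine. It gave 3 to 6 for proximal stomach minus bladder E18, 0 to 0 for E18 minus E15, 0 to 1 for E19 minus E18, 21 to 23 for small minus large intestine, 28 to 29 for knockout bladder and 27 to 28 for knockout proximal stomach against small intestine. A lone array left in a group was assumed to vary like the others. With 2 arrays per group, values near or below the array median carry no order.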

Other observations

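The wild-type gut arrays differed among themselves in these genes. In wild-type small intestine replicate 1 lay above replicate 2 in all 29 tested genes of the set, by 0.37 on average. In wild-type large intestine the replicates crossed: Fabp1 lay at 10.26 and 6.34, Slc7a9 at 11.45 and 9.91 and Fabp6 at 11.27 and 9.76 in replicates 1 and 2, while Lgals2 lay at 7.28 and 10.43.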
